A study of Mus musculus with 5 samples.

Results

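The Schlafen genes were described in group 2 innate lymphoid cells (ILC2s) from the lungs of naive adult male mice that lacked IL-33 or were wild type. The members were chosen from the Schlafen symbols Slfn1, Slfn2, Slfn3, Slfn4, Slfn5, Slfn8 and Slfn9 as the probe sets that the platform annotation pairs with exactly 1 of them, which gave 6 of 7 members, each with 1 probe set, out of 22180 genes. Slfn9 had no probe set of its own and shared one with Slfn8. The family was picked with the knockout and wild-type values of these arrays known, in which Slfn2 was among the transcripts that stood farthest apart, so the differences below are a description and support nothing by themselves.

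The groups were 2 arrays of ILC2s of genotype Knockout, named IL-33KO in the sample titles, and 3 arrays of genotype Wildtype, each a biological replicate per the labels and all from naive mice. The sources used here give no strain, no exact age, no design of the knockout allele, no gate or other means of isolating the cells and nothing on pooling of animals, so p-values measure only the spread between these arrays. Values are RMA signals on a log2 scale, so that a difference of 1 is a doubling in signal. Probe sets differ in how strongly they bind, and a signal is therefore compared between arrays and not between genes.

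Schlafen proteins share an N-terminal core that binds and, in several members, cuts transfer RNA, and many of the genes are induced by type I interferon. Slfn1 and Slfn2 encode the short members, which consist mostly of that core, Slfn3 and Slfn4 those of middle length, and Slfn5, Slfn8 and Slfn9 the long ones with a helicase-like C-terminal region. In mice the family is known for limiting growth of lymphocytes and myeloid cells, and loss of Slfn2 function leaves T cells unable to stay quiescent.

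The arrays held 41345 probe sets, with medians of 4.30 and 4.33 in knockout and 4.29 to 4.32 in wild type. Of 16 ILC2 markers 14 were measured, among them Gata3, Il7r, Klrg1 and Nmur1, and their mean signal was 8.53 and 8.62 in knockout, with 8.63 to 8.79 in wild type. The difference, knockout minus wild type, was above 0 in 3 of these 14 markers and below 0 in 11. The share above 0 was 21.4%, beside 58.5% of all genes tested. Il1rl1 and Areg, on the same list, were not analysed here. Il33 itself read 3.79 and 3.95 in knockout and 3.32 to 3.39 in wild type, too dim to be tested, and since the position of its probes against the deletion was not given, it does not check the labels. Knockout replicate 2 stood apart in Xist, the transcript of the inactive X chromosome, at 7.91, when knockout replicate 1 read 3.10 and wild type 2.35 to 3.10, although all samples are labelled male. Transcripts of the Y chromosome were not absent there, with Eif2s3y at 6.14, where knockout replicate 1 read 7.07 and wild type 6.82 to 7.62. Kdm5d was also lowest there, at 4.79, with 5.57 in knockout replicate 1 and 5.57 to 5.63 in wild type. Uty was highest there, at 7.17, with 6.95 in knockout replicate 1 and 5.83 to 6.96 in wild type. The difference of each measured Schlafen member is therefore given with and without knockout replicate 2.

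**Figure D1:**
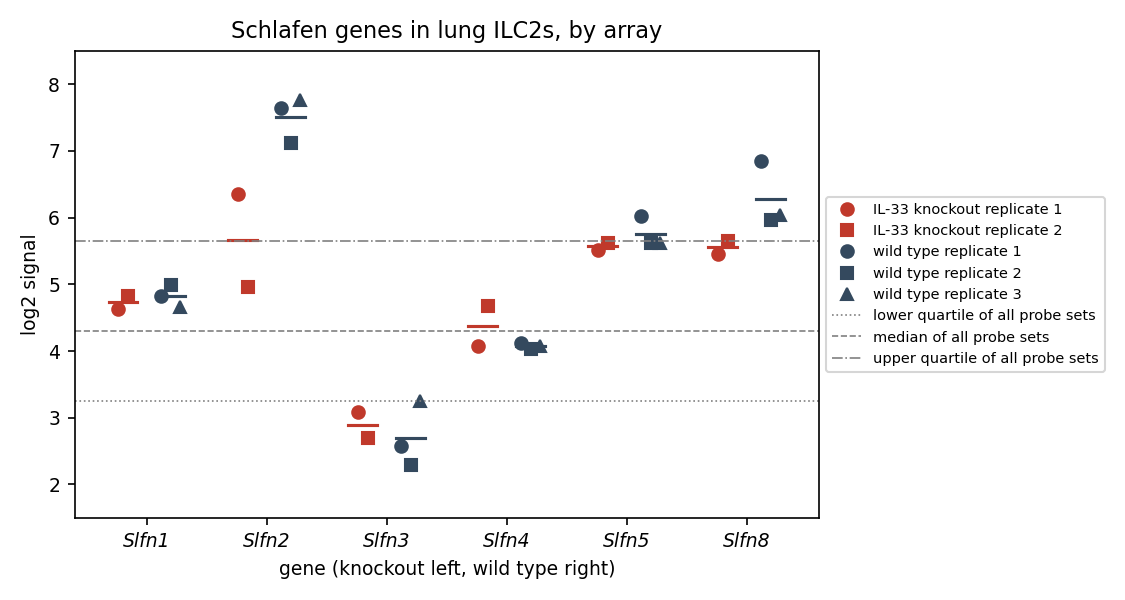
Log2 signal of the 6 measured Schlafen genes on each array, knockout left and wild type right for each gene, with bars at the group means and lines at the quartiles of all probe sets averaged over arrays. For Slfn2 the knockout arrays, at 6.35 and 4.96, lie below all wild-type arrays, and for Slfn3 no array lies above the lower quartile.

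Slfn2, the short Schlafen that protects transfer RNA from cleavage in activated mouse T cells, had the widest difference of the family. It read 6.35 and 4.96 in knockout, against 7.64, 7.12 and 7.77 in wild type. Both knockout arrays lay below every wild-type array, and the knockout arrays differed from each other by more than the gap of 0.76 between the groups. Among all probe sets of an array, Slfn2 was above 82.9% and 64.4% in knockout and above 90.6% to 93.6% in wild type. The means were 5.66 ± 0.99 (SD, n = 2) in knockout and 7.51 ± 0.34 (SD, n = 3) in wild type. This is a difference of -1.85, or a signal 3.61-fold higher in wild type, with a standard error of 0.51 and a 95% interval of -3.29 to -0.42. In the order of differences over 16635 genes tested, from the lowest up, it stood at place 54. Of the genes tested 1.41% were at least 1 log2 unit lower in knockout, and Slfn2 was the 1 Schlafen gene among them. In these bulk arrays, fewer cells that carry a transcript and less of it per cell cannot be told apart.

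A single array moved the size of the Slfn2 difference. Without knockout replicate 2, the array with the high Xist signal, it was -1.16 (SE 0.35), and without knockout replicate 1 it was -2.55 (SE 0.35). Here and below, the standard error of a fit with a lone knockout array holds no spread between knockout arrays. Such an error may be too small. Leaving out a wild-type array gave -2.05 to -1.72. As both knockout arrays lay below every wild-type array, leaving out 1 array could not change the sign. The size depended on which knockout array was used.

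**Figure D2:**
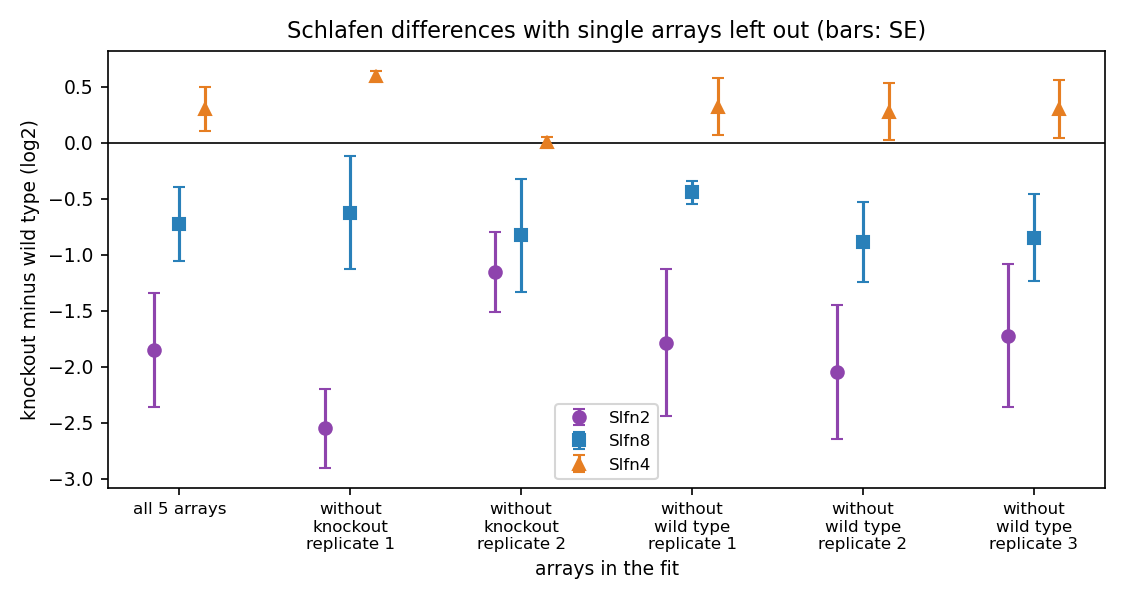
Difference between knockout and wild type on the log2 scale for Slfn2, Slfn8 and Slfn4, with all 5 arrays and with each array left out, and bars of 1 standard error. Where a knockout array is left out, the bars hold no spread between knockout arrays. Slfn2 lies between -2.55 and -1.16, Slfn8 between -0.89 and -0.44, and Slfn4 is at 0.004 when knockout replicate 2 is left out.

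Marker signals of some other cell types also differed between the genotypes. The mean of 13 lung epithelium markers was 5.37 and 4.50 in knockout, with 4.08 to 4.21 in wild type, and 9 of 11 tested were above 0 in difference. Of all genes tested, 58.5% were above 0. Bpifa1, an airway secretory gene on that list, read 8.52 in knockout replicate 1 but 3.22 in knockout replicate 2, and 2.85 to 3.22 in wild type. The mean of 12 endothelial markers was 5.17 and 5.36 in knockout, with 4.99 to 5.09 in wild type, and 8 of 10 tested were above 0. For 9 B cell markers it was 3.88 and 3.98 in knockout and 3.67 to 3.81 in wild type, for 12 T cell markers 5.90 and 5.88 in knockout and 5.91 to 5.93 in wild type, and for 10 fibroblast markers 3.72 and 3.81 in knockout and 3.64 to 3.77 in wild type. NK cell and ILC1 markers, 9 in number, averaged 3.77 and 4.22 in knockout, with 3.70 to 3.85 in wild type. Among them the granzyme gene Gzma read 3.84 in knockout replicate 1 and 6.56 in knockout replicate 2, while wild type had 3.27 to 4.01. Gzmb was also highest in knockout replicate 2, at 4.26, with 3.33 in knockout replicate 1 and 3.03 to 3.39 in wild type. The remaining markers of this list, Ncr1, Eomes and Tbx21 among them, lay within the range of wild type in knockout replicate 2. The array with the lowest Slfn2 signal, knockout replicate 2, was thus the highest for the NK list and for Gzma, and below knockout replicate 1 for the epithelial list. The part of these signals in the Schlafen differences was not tested.

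Slfn1, the other short member and the next member after Slfn2 in the gene cluster, is known to arrest growth when overexpressed in mouse T lineage cells. It read 4.63 and 4.83 in knockout, against 4.82, 4.99 and 4.66 in wild type. The groups overlapped, and the difference was -0.09 (SE 0.13), with a 95% interval of -0.47 to 0.28. It was -0.195 without knockout replicate 2 and 0.007 without knockout replicate 1.

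The promoters of the short members are shown because Slfn2 and Slfn1 follow each other among the members in the cluster and had unlike values. Sequences are RefSeq's of build GRCm38.p6, from 250 bases before to 50 bases after the annotated start, and all 7 members were found. Capitals mark the letters ACTTCCTG, a sequence like those that ETS family factors bind. Other forms of such sites were not searched for. This motif was picked after the windows had been read, on either strand, and 3.33% of 32851 promoter windows of this length hold it.
Slfn2 promoter (chr11:83064862-83065161, plus strand): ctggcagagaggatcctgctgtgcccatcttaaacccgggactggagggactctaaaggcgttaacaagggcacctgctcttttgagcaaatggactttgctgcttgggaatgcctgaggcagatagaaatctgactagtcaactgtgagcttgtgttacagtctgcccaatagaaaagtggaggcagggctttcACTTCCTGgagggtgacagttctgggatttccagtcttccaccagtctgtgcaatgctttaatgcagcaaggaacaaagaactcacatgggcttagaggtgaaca
Slfn1 promoter (chr11:83116570-83116869, plus strand): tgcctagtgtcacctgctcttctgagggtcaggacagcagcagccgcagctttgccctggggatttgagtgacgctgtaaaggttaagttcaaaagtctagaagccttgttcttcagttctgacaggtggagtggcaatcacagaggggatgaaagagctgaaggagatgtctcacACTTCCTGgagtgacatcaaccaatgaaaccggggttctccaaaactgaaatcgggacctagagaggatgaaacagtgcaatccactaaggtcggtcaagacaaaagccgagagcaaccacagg
The motif began at -55 from the annotated start in Slfn2 and at -74 in Slfn1. It was also found in both members of middle length, at -73 in Slfn4 and on either strand at -60 and -42 in Slfn3, and in none of the windows of Slfn5, Slfn8 and Slfn9. Of the members whose groups did not overlap, Slfn2 held the motif and Slfn8 did not. Slfn1, Slfn3 and Slfn4 held it, and their groups overlapped. As the motif was picked after the windows had been read, nothing about the differences is drawn from this.

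Slfn3 and Slfn4, of middle length, were dim or near the median. Slfn3 read 3.08 and 2.70 in knockout, against 2.57, 2.29 and 3.24 in wild type, below the lower quartile of each array, and was left out of the test as one of the 25% of genes with the lowest mean. Of the 6 measured members, it was the only one left out by this filter. Its difference of 0.19 was 0.38 without knockout replicate 2, -0.0023 without knockout replicate 1 and -0.0168 without wild type replicate 2. Slfn4, which is known from macrophages and other myeloid cells, read 4.08 and 4.67 in knockout, against 4.12, 4.03 and 4.08 in wild type. Only knockout replicate 2 was higher than the wild-type arrays, and knockout replicate 1 had the same value as wild type replicate 3. The difference was 0.30 (SE 0.20) with a 95% interval of -0.26 to 0.86, and without knockout replicate 2 it was 0.004 (SE 0.05). With that array alone against wild type it was 0.59, in a fit that assumes the lone array to vary like the wild-type ones. With all 5 arrays the adjusted p of Slfn4 by limma was 0.623.

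The list means of myeloid markers in knockout replicate 2 lay within the range of wild type, while some single markers were highest there. The mean of 17 macrophage and dendritic cell markers was 3.97 and 4.0 in knockout, with 3.78 to 4.11 in wild type. The mean of 12 neutrophil markers was 4.10 and 3.69 in knockout, with 3.52 to 3.93 in wild type. Csf1r, the receptor that maintains macrophages, was too dim to be tested, at 3.68 and 3.72 in knockout and 3.26 to 3.59 in wild type, with both knockout arrays above wild type. Siglec1, a macrophage lectin, read 3.65 in knockout replicate 1, 4.02 in knockout replicate 2 and 3.65 on each wild-type array. C1qc, a complement gene of macrophages, read 3.26 in knockout replicate 1, 3.67 in knockout replicate 2 and 3.26 on each wild-type array, and Chil3 and Cd14 were also highest in knockout replicate 2. No other marker of the macrophage and neutrophil lists had its highest value in that array alone. C1qa, Fcgr1 and Itgax were highest in knockout replicate 1, and Lyz2 and Cd68 in wild type replicate 2. Among interferon response genes, Ifit1 read 6.46 in knockout replicate 2, 4.87 in knockout replicate 1 and 4.59 to 5.33 in wild type. Cmpk2 and Usp18 were also highest there. Herc6, Irf9 and Stat2 were lowest there, with Herc6 at 5.37 and at 7.21 on each wild-type array. The part of these markers and genes in the Slfn4 signal of knockout replicate 2 was not tested.

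Among the long members, Slfn8 had a lower signal in both knockout arrays than in every wild-type array. It read 5.45 and 5.65 in knockout, against 6.84, 5.96 and 6.04 in wild type, with means of 5.55 ± 0.14 (SD, n = 2) in knockout and 6.28 ± 0.49 (SD, n = 3) in wild type. The gap between the groups was 0.30, and wild type replicate 1 stood above the other arrays. The difference was -0.73 (SE 0.33), a 1.66-fold higher signal in wild type, with a 95% interval of -1.65 to 0.20. Without wild type replicate 1 it was -0.44 (SE 0.10), and without knockout replicate 2 it was -0.83 (SE 0.50).

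Slfn9 is a near copy of Slfn8, and the only probe set that names it names both. That probe set read 1.57 and 2.60 in knockout, against 4.07, 2.30 and 2.19 in wild type, and in wild type replicate 1 alone it was above the lower quartile of all probe sets. No level can be given for Slfn9 on its own, and the signal of Slfn8 may hold some of its transcripts. The start regions of both genes are shown for this likeness, with capitals marking GAAANNGAA, the core of the interferon-stimulated response element, searched on both strands.
Slfn8 promoter (chr11:83020761-83021060, minus strand): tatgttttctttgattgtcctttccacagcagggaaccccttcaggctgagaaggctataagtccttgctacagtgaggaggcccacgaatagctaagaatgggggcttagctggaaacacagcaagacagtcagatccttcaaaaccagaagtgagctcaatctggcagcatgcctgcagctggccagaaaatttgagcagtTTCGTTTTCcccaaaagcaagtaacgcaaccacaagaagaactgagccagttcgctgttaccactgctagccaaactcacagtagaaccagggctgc
Slfn9 promoter (chr11:82991781-82992080, minus strand): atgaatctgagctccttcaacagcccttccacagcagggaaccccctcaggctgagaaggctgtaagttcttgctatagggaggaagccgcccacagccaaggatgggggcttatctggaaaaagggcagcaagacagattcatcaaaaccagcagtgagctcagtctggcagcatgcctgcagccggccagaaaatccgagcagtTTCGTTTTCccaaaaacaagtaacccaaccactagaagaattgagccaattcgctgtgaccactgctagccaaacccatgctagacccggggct
These 2 windows were identical at 83.4% of 295 aligned bases, whereas the other 27 pairs of Schlafen windows, Slfn14 included, had 50.7% to 66.1% over the bases that aligned. In both, the motif reads TTCGTTTTC, on the reverse strand, and begins at -47 in Slfn8 and -44 in Slfn9. RefSeq lists a second start for Slfn8, whose window holds the same match at -135. Of all windows 8.56% hold this motif, and among the members it was found in Slfn5, Slfn8 and Slfn9 and not in the windows of Slfn1 to Slfn4. TTCNNNGAA, the site named GAS that STAT factors bind, found in 8.30% of windows, had no match in any member. TGANTCA, the AP-1 site, was found in 7.81% of windows and among the members in Slfn4, at -34.

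Slfn5, a long member found in the nucleus and induced by interferon, read 5.51 and 5.62 in knockout, against 6.03, 5.62 and 5.62 in wild type. Knockout replicate 2 and wild type replicates 2 and 3 held exactly the same value, so that its spread may be too small. The difference was -0.19 (SE 0.16), with a 95% interval of -0.64 to 0.26. It was -0.05 without wild type replicate 1 and -0.24 without knockout replicate 2. Wild type replicate 1 was the highest array for Slfn5 as it was for Slfn8.

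With limma over 16635 genes, 0 of the 5 members tested passed an adjusted p of 0.05, and 0% of all genes tested did. The lowest adjusted p among the members was 0.541, for Slfn2. At an unadjusted p below 0.05, 1 member, Slfn2, was counted, where 7.64% of all genes were. Without overlap of the groups there were 2 of 5 members, Slfn2 and Slfn8, against 18.0% of all genes in either direction, 6.32% in the direction of lower and 11.6% in that of higher knockout signal. Of the 5 members, 4 were below and 1 was above 0 in difference, with a median of -0.19, beside a median of 0.04 over all genes tested. Since the family was picked with these values known, nothing is read from these shares.

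**Figure D3:**
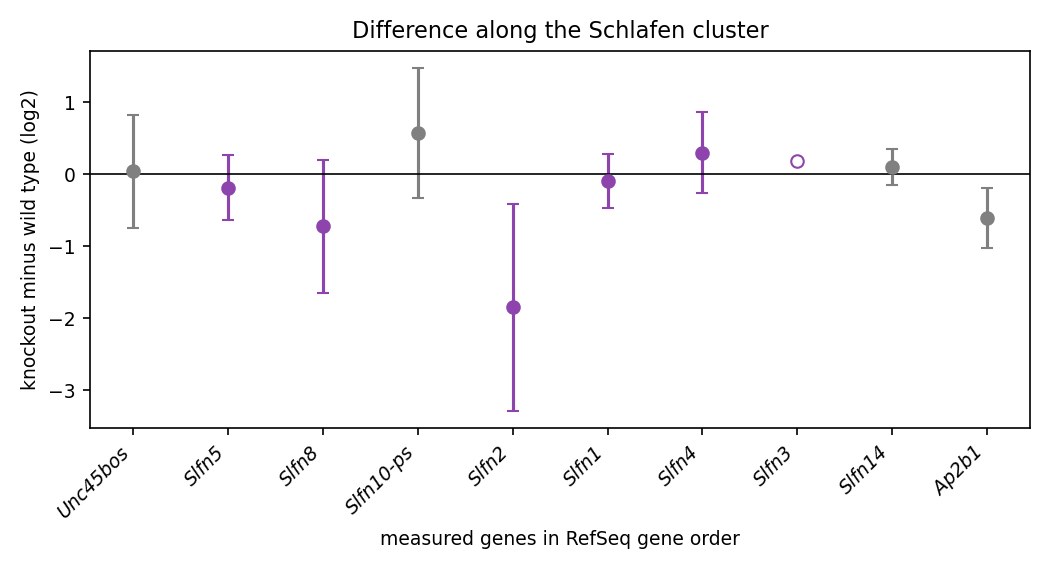
Difference between knockout and wild type on the log2 scale, with 95% intervals, for the Schlafen genes and the measured genes on either side, in the RefSeq order of chromosome 11 and evenly spaced, leaving out 2 genes known only by a provisional name. Purple points are members, and the open point is Slfn3, which was not tested. Slfn2 at -1.85 and the flanking gene Ap2b1 at -0.61 have intervals below 0.

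The Schlafen genes lie together on chromosome 11, and the differences varied from gene to gene along the cluster. Slfn10-ps, annotated as a pseudogene and lying between Slfn8 and Slfn2, read 6.55 and 5.82 in knockout, against 5.95, 5.32 and 5.57 in wild type. Its groups overlapped and its difference was 0.57 (SE 0.32), opposite in sign to both genes beside it. Without knockout replicate 2 it was 0.94, and without knockout replicate 1 it was 0.21. Slfn14, at the end of the cluster, differed by 0.10 (SE 0.09), or 0.03 without wild type replicate 3, and 3 of its arrays held an equal value. Slfnl1, a Schlafen-like gene on another chromosome, differed by -0.15 (SE 0.12), or -0.05 without wild type replicate 2. On one side the cluster is flanked by Unc45bos, an antisense transcript, with a difference of 0.04 (SE 0.28) that changed sign under some alternatives. On the other side lies Ap2b1, a subunit gene of the AP-2 adaptor for endocytosis, which read 7.80 and 7.40 in knockout, against 8.30, 8.18 and 8.14 in wild type. Ap2b1 differed by -0.61 (SE 0.15) without overlap, and its adjusted p was 0.514 with limma. Of 12 tested genes on a list of relatives and neighbours of the cluster, 8 were above and 4 below 0, and none passed. The share above 0 was 66.7%, beside 58.5% of all genes tested.

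Genes that answer to interferon, as many Schlafen genes do, had differences on both sides of 0. Of 40 listed, 36 were measured and 32 tested, 0 passed, and 19 were above and 13 below 0 in difference. Their median was 0.04, as over all genes tested, and 59.4% were above 0, beside 58.5% of all genes tested. Without overlap there were 5 higher and 4 lower, where 11.6% and 6.32% of all genes tested were. Ifitm3, a membrane protein that restricts virus entry, read 5.84 and 6.32 in knockout, against 5.47, 5.12 and 5.43 in wild type. Isg15, a ubiquitin-like modifier, read 4.18 and 4.65 in knockout, against 3.60, 3.82 and 3.98 in wild type. Both were thus above every wild-type array, on the side opposite to Slfn2 and Slfn8. Ifi35 was on their side, at 7.16 and 7.23 in knockout and 8.20, 7.82 and 7.64 in wild type. Its difference was -0.69 for the probe set of highest mean and -0.22 with its probe sets averaged. Zbp1, a sensor of nucleic acids, differed by 0.54 (SE 0.20) and Ifnar1, a chain of the type I interferon receptor, by 0.50 (SE 0.20). Without knockout replicate 1 the difference of Zbp1 was 0.29, and without knockout replicate 2 that of Isg15 was 0.38, where it was 0.61 with all arrays.

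Genes linked to lymphocyte quiescence, the state that Slfn2 is known to maintain in mouse T cells, also had differences on both sides of 0. Of 21 tested, 13 were above and 8 below 0, the median was 0.16, and 0 passed. The share above 0 was 61.9%, beside 58.5% of all genes tested. Txnip, an inhibitor of glucose uptake, read 10.77 and 10.45 in knockout, against 11.21, 11.15 and 10.95 in wild type. Cdkn1b, the cell cycle inhibitor p27, differed by -0.45 (SE 0.21), with both knockout arrays below wild type, but by -0.16 without knockout replicate 2 and -0.74 without knockout replicate 1. Klf4 was at 9.45 and 8.43 in knockout, against 8.22, 8.14 and 8.36 in wild type, a difference of 0.70 that was 0.19 without knockout replicate 1 and 1.21 without knockout replicate 2. Foxp1 differed by 0.34 (SE 0.20) and Btg1 by -0.22 (SE 0.13), and in both genes the groups met at an equal value. Without knockout replicate 1, Foxp1 differed by 0.07 and Btg1 by -0.40, and without knockout replicate 2 Foxp1 differed by 0.60 and Btg1 by -0.03. With limma, the adjusted p of Btg1 was 0.0423 without knockout replicate 1, and 0.0423 to 0.908 over its alternatives.

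A list of genes linked to RNA cleavage, RNA handling or translation restriction, where Schlafen proteins are known to act, had 18 members tested. Of these, 7 were above and 11 below 0, with a median of -0.07 and 0 passing. The share above 0 was 38.9%, beside 58.5% of all genes tested. Eif2ak1, the kinase that slows translation when heme is short, read 5.54 and 4.77 in knockout, against 5.76, 5.91 and 5.98 in wild type, a difference of -0.73 that was -1.12 without knockout replicate 1 and -0.35 without knockout replicate 2. Zc3hav1, which marks viral RNA for decay, was at 8.42 and 8.11 in knockout, against 7.84, 7.28 and 7.92 in wild type, a difference of 0.59, or 0.39 without wild type replicate 2. Elac2, Tsn and Nsun2, which trim, bind or methylate transfer RNA or its fragments, differed by -0.50, -0.14 and -0.23. The last had overlapping groups. By array left out, Elac2 differed by -0.25 without wild type replicate 3, Tsn by -0.07 without knockout replicate 2 and -0.22 without knockout replicate 1, and Nsun2 by -0.47 without knockout replicate 1 and 0.0075 without knockout replicate 2. The lowest adjusted p with limma was 0.541 in the interferon list, 0.550 in the quiescence list and 0.623 in this one.

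**Figure D4:**
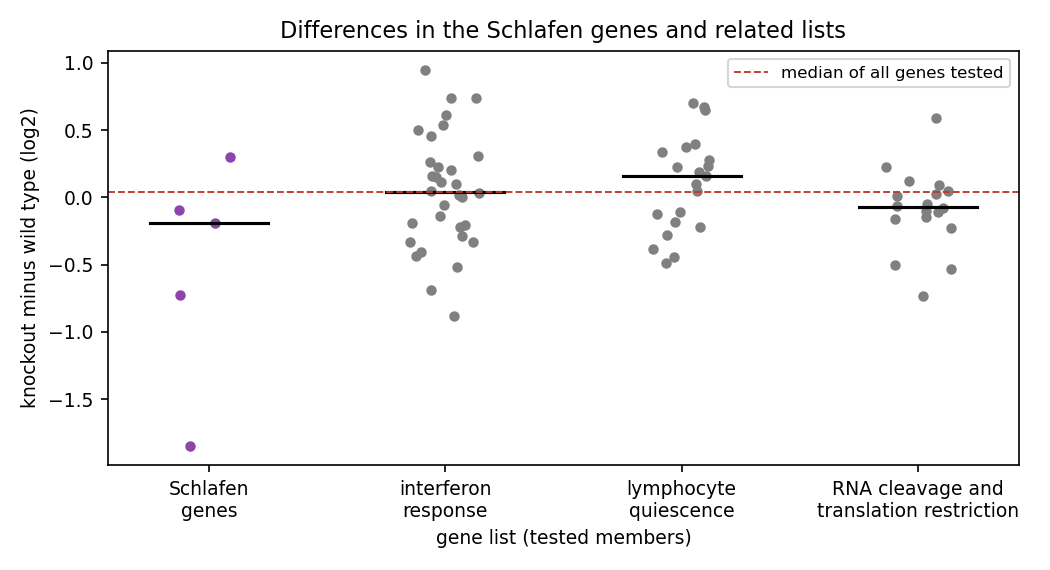
Difference between knockout and wild type on the log2 scale for the tested genes of the Schlafen family and of 3 related lists, with bars at the list medians and a dashed line at the median of all genes tested. The Schlafen median is -0.19 over 5 genes, and the points of the other lists lie on both sides of 0.

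Genes whose profile over the 5 arrays was most like that of Slfn2 were taken by the root mean square difference of log2 signals, each gene centred on its own mean. The nearest was Rida, an enzyme gene for clearing reactive imines, at a distance of 0.23. It was followed by Tnfsf10, the death ligand TRAIL, at 0.24, and Pold3, a subunit of DNA polymerase delta, at 0.26. Sit1, an adaptor that dampens T cell receptor signals, was at 0.27 and Rragc, a GTPase of amino acid sensing, at 0.33. Tnfsf10 read 5.04 and 4.29 in knockout, against 6.75, 6.07 and 6.49 in wild type. Sit1 read 5.74 and 5.11 in knockout, against 7.20, 6.99 and 7.32 in wild type, and with limma its adjusted p was 0.402 with all 5 arrays. In all 5 of these genes, as in Slfn2, knockout replicate 2 was the lowest array and knockout replicate 1 the next, which follows from the way they were picked.

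**Figure D5:**
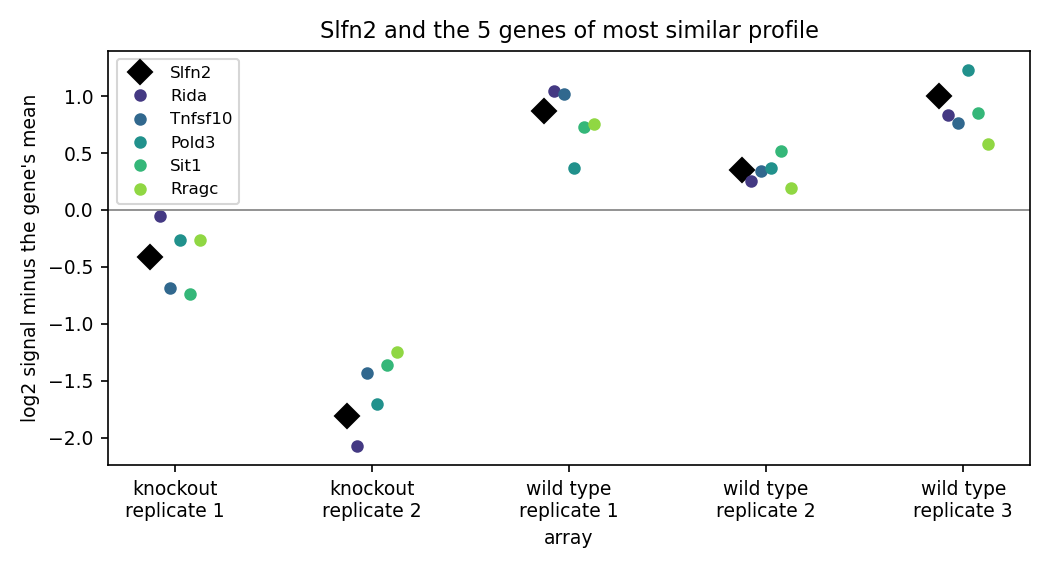
Log2 signal of Slfn2 and of the 5 genes nearest to it in profile, each minus its mean over the 5 arrays, by array. All 6 genes lie below their mean in both knockout arrays and lowest in knockout replicate 2.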

How the data were processed

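RNA was extracted with Trizol and labelled with biotin, per the labels' protocols. Signals were deposited on a log2 scale, one per probe set, and the submitters' processing notes name Affymetrix Expression Console and RMA, with versions and settings not stated in the sources used here. As RMA usually equalises arrays, it would hide a change common to all transcripts.

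Of the probe sets, 23521 had 1 symbol in the platform annotation, 1814 several and 16010 none. RefSeq's table for GRCm38.p6 held 23328 of the first kind and gave names and gene order only. Per gene, the probe set of highest mean was used, and the dimmest 25% of genes by mean were dropped. The test was limma 3.58.1 (lmFit, eBayes; R 4.3.3) with Benjamini-Hochberg adjustment over 16635 genes, a threshold of 0.05 and no block, and it was tested on simulated data. Precision is limited by the number of arrays. An exact permutation of 3 against 2 arrays cannot go below p = 0.1, and none is given.

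Named were all members, 3 relatives, the genes flanking the cluster, up to 5 genes of smallest p in each related list and the 5 nearest to Slfn2. Bpifa1, Gzma, Gzmb, Ncr1, Eomes, Tbx21, Csf1r, Siglec1, C1qc, Chil3, Cd14, C1qa, Fcgr1, Itgax, Lyz2, Cd68, Gm20234 and Lig3 were named after their values were seen. Ifit1, Cmpk2, Usp18, Herc6, Irf9 and Stat2 were named in the same way. The members and lists were chosen with earlier results of these data known. Alternatives covered the filter, probe sets, normalization, variance model, array weights, replicate block, thresholds and each array left out.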

Additional observations from a re-analysis of the deposited data

Results flagged for a closer look

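A probe set outside the comparisons above, which the annotation pairs with both Slfn5 and its antisense transcript Slfn5os, gave a signal above that of all wild-type arrays in both knockout arrays. It read 4.27 and 4.02 in knockout, against 3.84, 3.79 and 3.84 in wild type, a difference of 0.32 (SE 0.10) opposite in sign to the probe set of Slfn5 alone. In a limma fit of all probe sets its adjusted p was 0.609. All its values lay below the median of their arrays, and which of the genes it reads was not tested.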

How the results depend on the processing

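The filters, the choice of probe sets and the variance model left the difference at -1.85 for Slfn2 and -0.73 for Slfn8. These alternatives could thus not change either sign. As the groups did not overlap for Slfn2 or Slfn8, leaving out an array could not change it either. The Slfn2 difference was -1.87 after quantile normalization, -1.86 after median centring and -1.83 with array weights. Over alternatives that kept both knockout arrays, its adjusted p by limma ranged from 0.453 to 0.793. Slfn8 had differences from -0.89 to -0.44 over all alternatives. With each array left out in turn, the count of genes called ranged from 0 to 1072, of Schlafen genes called from 0 to 1 (Slfn4), of members without overlap from 2 to 4, and of interferon genes called from 0 to 3. The counts of genes called were 1072 without knockout replicate 1 and 389 without knockout replicate 2, where the spread of the lone knockout array is taken from wild type. No other alternative called a gene. With all 5 arrays, 5 members, 32 interferon genes and 16635 genes in all were tested. The counts of members without overlap with an array left out also took in Slfn3, which was not tested. The count of 4 came without knockout replicate 2, where the lone knockout array need only lie outside the wild-type range. The share of all genes without overlap is not given for these settings, so nothing is read from the counts of members or of interferon genes. Of 31 named genes, 27 kept their sign in every alternative run. Many of them were picked for a small p or for nearness to Slfn2, and several alternatives left the differences unchanged. The count therefore does not measure stability. Leaving out arrays took the difference of Slfn1 from -0.195 to 0.007, of Slfn3 from -0.0168 to 0.46, of Unc45bos from -0.25 to 0.33 and of Nsun2 from -0.47 to 0.0075, and the cause was not tested. Whether replicate numbers pair the samples could not be told. Deviations of same-numbered arrays from their group means correlated at -0.05 and 0.14. With only 2 knockout arrays, their deviations mirror each other, so these values cannot decide it. With the number as a replicate block, Slfn2 differed by -1.72 (limma, adjusted p = 0.725), Unc45bos by -0.0592, and no gene was called. The median difference over all genes was 0.04, and 0.05 after quantile normalization and 0.03 after median centring. Dim signals limit Slfn3 and the Slfn9 and Slfn8 probe set.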

Other observations

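Gm20234, a predicted gene that lies between Slfn2 and Slfn1 in the RefSeq order, was named after its values were seen. It read 6.74 and 6.53 in knockout, against 6.17, 5.23 and 6.21 in wild type, so that both knockout arrays lay above every wild-type array while Slfn2 beside it lay below. Its difference was 0.76 (SE 0.37), with an adjusted p of 0.623 by limma. Lig3, a DNA ligase gene near the cluster, also named afterwards, read 5.16 and 5.43 in knockout, against 6.15, 6.04 and 5.79 in wild type, a difference of -0.70 (SE 0.16) with an adjusted p of 0.473 by limma. Both genes were not followed over the alternatives.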
